A study of Mus musculus with 12 samples.

Results

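The 9 genes described here encode ion channels of the transient receptor potential (TRP) superfamily. They are Trpm7, Trpm3 and Trpm2 of the TRPM branch, Trpc1, Trpc4 and Trpc5 of the TRPC branch, Trpv2 of the TRPV branch, the lysosomal channel Mcoln1 and the polycystin Pkd2. They were picked by gene symbol, 9 of the 17550 genes that the main probesets of the array name, and they hold 224 of its 221417 main probesets with a symbol. A probeset is a group of array probes against a stretch of 1 exon. Trpm7 drew attention because many of its probesets were lower in brains lacking the kinase KIS, so its genotype values are given as a description, without a test. Total RNA came from the whole brains of newborn female mice, KIS +/+ (wildtype) and KIS -/- (KIS-ko), in 6 pairs of littermates, with 1 brain of each genotype from each litter and 1 Affymetrix mouse Exon 1.0 ST array for each brain. KIS, the product of Uhmk1, is a nuclear protein kinase that phosphorylates the splicing factor SF1. The knock-out had been backcrossed to C57BL6/N and is carried in the germ line, so KIS was missing from all tissues and not from the brain alone. The comparison addressed which transcripts differ in the neonate brain when KIS is missing.

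TRP channels are cation channels built around a shared membrane core, and many of them admit calcium. Trpm7 joins a channel permeable to magnesium, calcium and zinc to an alpha-kinase domain in the same protein, and cells that lack it grow poorly without extra magnesium. TRPC channels open downstream of phospholipase C and shape growth cones and neuronal excitability, Mcoln1 releases calcium from lysosomes in response to a phosphoinositide, and Pkd2 forms a channel with polycystin-1 on the primary cilium.

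Uhmk1 itself, taken as a check of the labels, differed by -2.11 ± 0.19 on the log2 scale (SD, n = 6 litters) between KIS-ko and wildtype, with the 6 KIS-ko arrays all below the 6 wildtype arrays. Of 17279 genes quantified, it was the only gene with an adjusted p below the threshold of 0.05 in limma with litter as a block (adjusted p = 2.91e-07), and the call covered 0.00579% of the genes. The arrays correlated with each other at 0.977 to 0.990, and no 2 arrays were identical. Median array signals ran from 459.9 to 525.9, with the KIS-ko brain below its wildtype littermate in 5 of 6 litters and above it in litter 4. In the typical gene the log2 difference was -0.04, and 69.8% of genes had a negative one. Neuronal markers were well detected, with 5 of 7 quantified and all 5 above the intron controls described below, and their summed signal was 38062 to 41370 in wildtype and 37743 to 39823 in KIS-ko brains. Of 9 microglial markers 1 was above those controls, Csf1r, Cx3cr1 and P2ry12 not among them. In whole-brain RNA, fewer cells of a type and less RNA per cell cannot be told apart.

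The start regions of Trpm7 and Mcoln1 are shown because, among the 9 genes, they alone hold the hexamer CACGTG in the 250 bases before a RefSeq start site. CACGTG is the core of the E-box read by bHLH-ZIP factors, among them TFEB, a regulator of lysosomal genes. The search was made after the expression values had been seen. Sequences are from RefSeq on GRCm38.p6, and all 9 genes were matched, with 12 start sites. They are written 5′ to 3′ on the strand of the gene, Trpm7 at chr2:126876262-126876511 (minus strand) and Mcoln1 at chr8:3500269-3500518 (plus strand), with CACGTG in capitals.
Trpm7: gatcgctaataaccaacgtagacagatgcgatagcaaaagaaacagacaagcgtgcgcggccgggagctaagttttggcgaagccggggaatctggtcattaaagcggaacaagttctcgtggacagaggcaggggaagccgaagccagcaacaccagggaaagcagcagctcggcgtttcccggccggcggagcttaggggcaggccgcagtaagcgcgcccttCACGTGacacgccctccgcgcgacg
Mcoln1: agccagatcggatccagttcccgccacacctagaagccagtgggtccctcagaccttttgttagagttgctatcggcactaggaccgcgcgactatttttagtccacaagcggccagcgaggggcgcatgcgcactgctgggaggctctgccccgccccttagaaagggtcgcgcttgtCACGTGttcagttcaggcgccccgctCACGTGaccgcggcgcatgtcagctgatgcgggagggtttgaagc
Trpm7 held 1 copy, beginning 25 bases before the start site. Mcoln1 held 2 copies, beginning 71 and 45 bases before it. The hexamer reads the same on both strands. It was present in 6.02% of 32851 promoters of the same length, and 0.429% held 2 or more copies. The longer palindrome TCACGTGA, which contains it, occurred once in each of both genes and in 0.785% of promoters. Both stretches were rich in CG dinucleotides, 26 in Trpm7 and 21 in Mcoln1 against a median of 6 over all promoters. At the start sites of the other genes the count ran from 2 in Trpv2 to 17 in Trpm3 and Trpc1. Whether these letters are bound by any factor was not tested.

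Trpm7 (channel and alpha-kinase, chromosome 2 minus strand, 126617411 to 126701892 in the positions of the array table, whose genome build is not given in the sources used here) was lower in the KIS-ko brain of 5 litters and higher in that of litter 4. The gene value is the mean over probesets of log2(signal + 16), and it could be read from all 48 probesets. Of these, 29 exceeded a signal of 713.3, the 95th percentile of 5222 intron control probesets. In wildtype brains the Trpm7 gene value was 9.53 at the lowest, 9.78 at the median and 9.83 at the highest. In KIS-ko brains it was 9.36, 9.57 and 9.80. The genotypes thus overlapped, because the KIS-ko brain of litter 4 was level with the higher wildtype brains and its wildtype littermate was the lowest of its genotype. Within litters 1 to 6 the log2 difference of KIS-ko minus wildtype was -0.28, -0.18, -0.22, 0.27, -0.29 and -0.34. The mean was -0.17 ± 0.23 (SD, n = 6 litters), and it was -0.26 without litter 4. Litter 4 was also the only litter whose KIS-ko array had the higher median signal, by 0.10 on the log2 scale, and 30.3% of genes were lower there, the smallest share of any litter. Over all genes, 16.4% followed the same course as Trpm7, higher in litter 4 and lower in the 5 other litters. Taken relative to the median gene of each litter, the Trpm7 difference was -0.24, -0.09, -0.22, 0.20, -0.24 and -0.23, so litter 4 kept the opposite sign. The 3′ minus 5′ signal (log2) of the median gene, a sign of RNA integrity, differed between littermates by 0.018 in litter 4, the highest of the 6 litters, and by -0.036 to 0.011 in the others. The summed choroid plexus and microglial markers were higher in the KIS-ko brain of litter 4 by 0.18 and 0.16, against means of -0.02 and -0.006 over litters, with 3 of 8 and 1 of 9 of these genes above the intron controls. The parts of array level, RNA integrity and cell makeup in the Trpm7 difference were not tested.

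**Figure D1:**
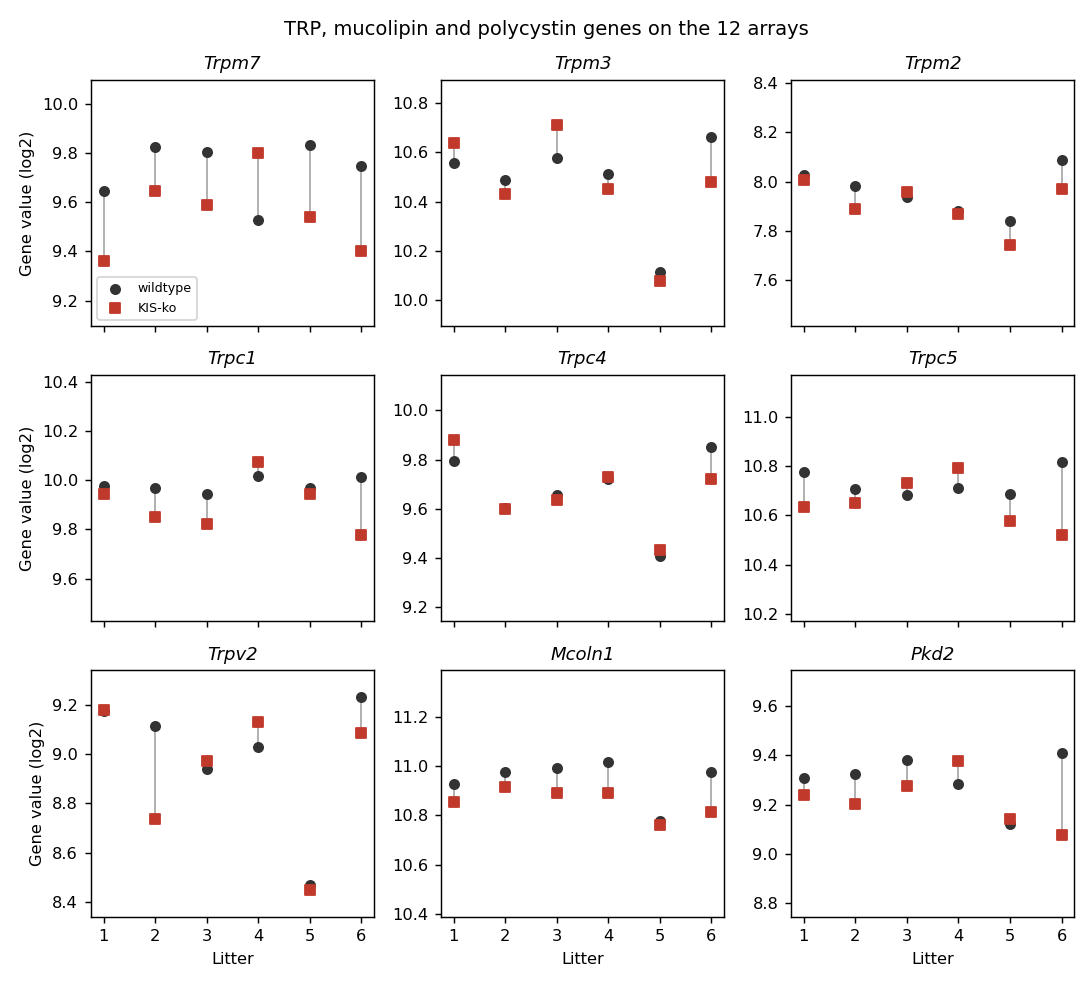
Gene values (mean log2 of PLIER signal + 16 over probesets) of the 9 channel genes in each litter, with wildtype as black circles and KIS-ko as red squares, littermates joined by a grey line; every panel spans the same number of log2 units but starts at its own level. Trpm7 ran lower in KIS-ko in litters 1, 2, 3, 5 and 6 and higher in litter 4, and both brains of litter 5 were the lowest for Trpm3, Trpc4 and Trpv2.

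The lower Trpm7 signal ran along the whole transcript. Averaged over litters, 47 of 48 Trpm7 probesets had a negative difference, from -0.42 to 0.09. The exception was the first probeset at the 5′ end (chromosome 2, 126701861 to 126701892), a dim one with a mean signal of 379.8 and a difference of 0.09. The number of Trpm7 probesets lower in KIS-ko was 40, 41, 46, 4, 41 and 46 of 48 in litters 1 to 6, so the opposite direction in litter 4 also ran through the whole gene, with 44 probesets higher. Since probesets of 1 gene in 1 brain share their RNA, these are not independent measurements. Over the 8749 genes of at least 10 probesets, 4.89% had as large a share of lower probesets as Trpm7, which was picked for this very share, so nothing is read from its place. The brightest Trpm7 probeset (126638643 to 126638760, mean signal 4188) gave -0.24, -0.13, -0.13, 0.10, -0.19 and -0.18 in litters 1 to 6. At 2 neighbouring probesets of mean signal 1168 and 773.3, all 6 litters were lower, litter 4 by only 0.03 and 0.01 (differences of -0.03 and -0.01).

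The size of the Trpm7 difference varied along the gene and with signal. It was -0.12 over the 16 probesets nearest the 5′ end, -0.17 over the 16 in the middle and -0.22 over the 16 nearest the 3′ end, where the median signals were 1003, 908.9 and 636.0. The 29 probesets above the intron control limit gave -0.14, all 29 of them negative, and the 19 others gave -0.22. With the transcript split into 3 equal parts, the Trpm7 difference at the 3′ end minus that at the 5′ end came to -0.10 ± 0.13 (SD, n = 6 litters), negative in 5 litters. The same quantity was -0.01 for the median of 7115 genes with at least 12 probesets, and 10.8% of them had a value at or below that of Trpm7. The parts of probeset brightness and RNA integrity in this slope were not tested. The 3 Trpm7 probesets that match more than 1 place in the genome gave -0.16, and the 45 others -0.17.

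**Figure D2:**
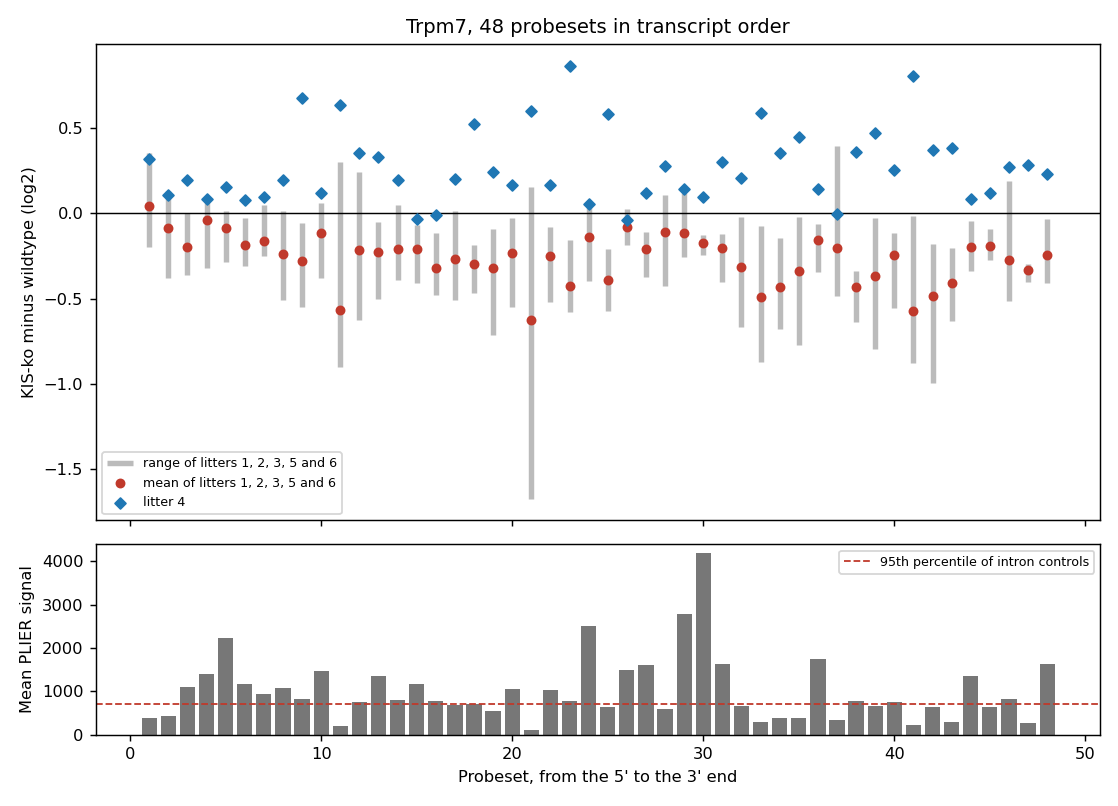
Trpm7 probesets in transcript order from the 5′ to the 3′ end; above, the KIS-ko minus wildtype difference (log2), with the mean of litters 1, 2, 3, 5 and 6 as red circles, their range as grey bars and litter 4 as blue diamonds; below, the mean PLIER signal of each probeset, with the 95th percentile of the intron controls (713.3) as a dashed line. The litter 4 diamonds lie above 0 at 44 of 48 probesets, while the means of the other litters lie below 0 at all but the first probeset.

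The scale used in the study is the weighted mean over probesets of the KIS-ko to wildtype signal ratio. On it the fold change of Trpm7 was 0.919 ± 0.118 (SD, n = 6 litters). It was 0.855 without litter 4, but 0.944 without litter 6 and 0.953 with every array centred on its median, both changes under 6%. The study also ranks genes by a sum over probesets of the logarithm of each ratio's relative standard deviation, added for probesets near the gene's own fold change and subtracted for the rest, low sums ranking first. Recomputed here, this score ranked Trpm7 15 of 17279 genes, with a log value of -28.9. Among the 4558 genes changed by at least 6% in either direction it ranked 10. The set of quantified genes is not that of the paper, so these ranks need not be the paper's own. The fold change and the ranks come from the contrast on which Trpm7 was singled out. Mcoln1 ranked 24, with a change under 6%, and the 7 other genes ranked between 966 (Trpc5) and 17035 (Trpm3).

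The 5 genes whose course over the 12 arrays was most like that of Trpm7 were Dopey1, Vps26a, Sepp1, Naa15 and Smek1. Likeness was Pearson's r of the gene value after each genotype's mean had been removed, over 7247 other genes brighter than the intron control limit, and it was 0.933 for Dopey1, 0.932 for Vps26a, 0.926 for Sepp1, 0.924 for Naa15 and 0.916 for Smek1. The arrays share litters and overall signal level, so these coefficients are descriptions only. Vps26a is a subunit of the retromer coat of endosomes, Sepp1 is a selenium carrier protein, and Naa15 is a subunit of an N-terminal acetyltransferase. As the choice by likeness to Trpm7 favours, all 5 genes were higher in the KIS-ko brain of litter 4, by 0.28, 0.14, 0.40, 0.24 and 0.26 on the log2 scale in that order. Their mean differences were -0.14, -0.12, -0.10, -0.15 and -0.15.

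The other TRPM genes had other courses over the litters. Trpm3, a heat- and steroid-gated calcium channel (chromosome 19 plus strand, 22522726 to 23064361), kept 31 of 32 probesets, 27 of them above the intron control limit. The Trpm3 gene value was 10.11, 10.53 and 10.66 (lowest, median, highest) in wildtype and 10.08, 10.47 and 10.71 in KIS-ko brains, the genotypes overlapping over nearly the whole range. Its log2 difference was -0.02 ± 0.11 (SD, n = 6 litters), with 4 litters lower and 20 of 31 probesets negative. The sign turned with every array centred on its median (0.04) and without litter 6 (0.01). In litter 4, where Trpm7 was higher, 22 of 31 Trpm3 probesets were lower, and in litter 3, where Trpm7 was lower, only 3 were. Trpm2, a channel opened by ADP-ribose under oxidative stress (chromosome 10 minus strand, 77371778 to 77432578), was close to the level of the intron controls, with 2 of 38 kept probesets above the limit. Its gene value was 7.84, 7.96 and 8.09 in wildtype and 7.74, 7.92 and 8.01 in KIS-ko brains, and its difference was -0.05 ± 0.06 (SD, n = 6 litters). On the 2 brighter probesets alone the Trpm2 difference was 0.07, so no direction can be given for it, and with centred arrays it was -0.0009.

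The 3 TRPC genes, subunits that assemble with each other into receptor-operated channels, were clearly detected. Trpc1 (chromosome 9 minus strand, 95607188 to 95650746) had 12 of 18 probesets above the intron control limit, Trpc4 (chromosome 3 plus strand, 53960046 to 54122332) 12 of 17, and Trpc5 (chromosome X minus strand, 140817312 to 141122655) 9 of 11. The Trpc1 gene value was 9.94, 9.97 and 10.02 in wildtype and 9.78, 9.90 and 10.07 in KIS-ko brains. The wildtype brains were tightly grouped, and 3 KIS-ko brains, those of litters 2, 3 and 6, lay below all of them. The log2 difference of Trpc1 was -0.08 ± 0.10, lower in 5 litters and higher in litter 4, though not relative to the median gene there (-0.01). It was -0.05 without litter 6 and -0.02 with centred arrays. The Trpc4 gene value was 9.41, 9.69 and 9.85 in wildtype and 9.43, 9.68 and 9.88 in KIS-ko brains, with a difference of -0.01 ± 0.07, 3 litters on each side and 8 of 17 probesets negative. Its sign also turned with centred arrays (0.05) and without litter 6 (0.02). Trpc5 had gene values of 10.68, 10.71 and 10.82 in wildtype and 10.52, 10.64 and 10.79 in KIS-ko brains. Its difference was -0.08 ± 0.14, with 4 litters lower, the widest in litter 6 at -0.30, where all 11 probesets were lower. It was -0.03 without litter 6 and -0.02 with centred arrays.

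Trpv2, a calcium-permeable channel found in developing neurons and in macrophages (chromosome 11 plus strand, 62389484 to 62413782), had 7 of 20 probesets above the intron control limit. Its gene value was 8.47, 9.07 and 9.23 in wildtype and 8.45, 9.03 and 9.18 in KIS-ko brains. The ranges were nearly the same, and the spread within a genotype exceeded the difference of -0.07 ± 0.17 (SD, n = 6 litters). That mean rested on litter 2, at -0.38 with 17 of 20 probesets lower, since 3 litters were lower and 3 higher. It was -0.007 without litter 2, -0.01 with centred arrays and -0.01 on the 7 brighter probesets.

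Mcoln1, the lysosomal calcium release channel whose loss causes mucolipidosis (chromosome 8 plus strand, 3500597 to 3515210), was the only one of the 9 genes lower in KIS-ko in every litter. It kept 18 of 19 probesets, 13 of them above the intron control limit. The Mcoln1 gene value was 10.78, 10.97 and 11.02 in wildtype and 10.76, 10.87 and 10.91 in KIS-ko brains. Both brains of litter 5 were the lowest of their genotype, and the genotypes overlapped. In litters 1 to 6 the log2 difference was -0.07, -0.06, -0.10, -0.13, -0.02 and -0.16, a mean of -0.09 ± 0.05 (SD, n = 6 litters). Litter 4, the reverse of the others for Trpm7, was among the lower ones here. On the study's scale the fold change was 0.946 ± 0.027, and 17 of 18 probesets had a negative mean. A fold change of 0.94 or less, shown by 8.84% of genes, was reached by Trpm7 alone of the 9, though not with centred arrays (0.953), after renewed quantile normalization (0.944) or without litter 6 (0.944). For Mcoln1 the exact sign-flip permutation test over litters gave p = 0.03125 (two-sided), the smallest that 6 litters allow. Mcoln1 was 1 of 8 of the described genes tested in this way, and the 18 other TRP genes and Uhmk1 were tested too. Over all genes 1.6% were lower in all 6 litters. In limma the unadjusted p of Mcoln1 was 0.0706 and the adjusted p 0.685, so the difference did not pass over all genes. Relative to the median gene, Mcoln1 was lower in 4 of 6 litters, by -0.05 ± 0.09, and it was -0.03 once each array had been centred. Pkd2, the channel subunit mutated in polycystic kidney disease (chromosome 5 plus strand, 104895923 to 104934800), had 10 of 20 probesets above the limit. Its gene value was 9.12, 9.32 and 9.41 in wildtype and 9.08, 9.22 and 9.38 in KIS-ko brains, and the difference was -0.09 ± 0.15, widest in litter 6 at -0.33 with 19 of 20 probesets lower. In litters 4 and 5 Pkd2 was higher in KIS-ko, and the mean was -0.04 without litter 6 and -0.03 with centred arrays.

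Over the table-wide test, 0 of the 8 genes other than Trpm7 passed the adjusted threshold of 0.05, and 0 of 8 had an unadjusted p below 0.05, where 6.16% of all genes did, 4.34% lower and 1.82% higher. Their adjusted p ran from 0.685 to 0.967 in limma. All 9 genes had a negative mean, with a median of -0.08, beside 69.8% of all genes, and 7 of 9 did once each array had been centred, beside 38.4% of all genes on that scale. Lower in 5 or 6 litters were 3 of the 8 genes other than Trpm7, where 22.5% of all genes were. Trpm7 was chosen for being lower, so counts that include it are descriptions. Centring moved the median of all genes from -0.04 to 0.02. The number of the 9 genes lower in KIS-ko was 6, 9, 5, 3, 7 and 9 in litters 1 to 6, against 64.7%, 69.1%, 49.0%, 30.3%, 66.1% and 70.4% of all genes. The litters with fewer of these genes lower were thus those with fewer genes lower in all. Of the 173 kept probesets of the 8 genes, 127 had a negative mean, where 66.2% of all probesets did. By probeset, 0 of these passed in limma over the whole table, where 0.00487% did. At an unadjusted p below 0.05, 8 were lower and 2 higher, where 4.72% and 1.91% of all probesets were. Of these 10, 7 belonged to Trpm2, at signals from 39.9 to 359.0, below the intron control limit. The p-values measure the spread between these brains, and 6 per genotype limit the precision.

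**Figure D3:**
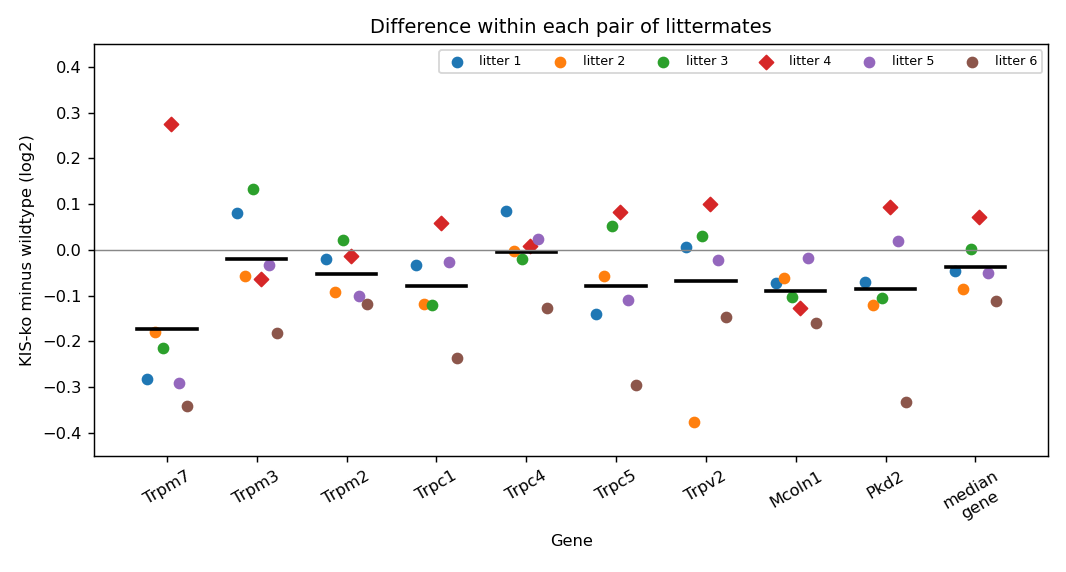
KIS-ko minus wildtype difference (log2) of each channel gene within each of the 6 litters, and of the median gene at the right; circles are litters, litter 4 is a red diamond and black bars are means over litters. Trpm7 had the lowest mean (-0.17) and the highest single point (0.27, litter 4), and Mcoln1 is the gene with all 6 points below 0.

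Differences between litters were larger than between genotypes for some of these genes. In litter 5, both brains had the 2 lowest gene values of the 12 arrays for Trpm3, Trpm2, Trpc4, Trpv2 and Mcoln1, 5 of the 9 genes, and 13.1% of all genes showed this order. None of the 9 had both its highest values there, as 2.8% of genes did. This litter was singled out after the values had been seen. Trpv2 was 8.47 and 8.45 in the wildtype and KIS-ko brain of litter 5 and 8.74 to 9.23 in the other 10. Trpm3 was 10.11 and 10.08 there and 10.43 to 10.71 elsewhere. Trpc4 was 9.41 and 9.43 there and 9.60 to 9.88 elsewhere. The mean of litter 5 lay below that of the other litters by -0.60 for Trpv2, -0.45 for Trpm3 and -0.30 for Trpc4 on the log2 scale, while the median gene differed by -0.03. In that comparison 0.231% of genes lay at or below Trpv2, 1.15% at or below Trpm3 and 6.09% at or below Trpc4. The shift ran through the transcripts, with 31 of 31 Trpm3 probesets, 17 of 17 Trpc4 probesets and 19 of 20 Trpv2 probesets lower. Trpm7 was not low in litter 5, at 0.05, nor was Trpc1, at 0.02.

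The F test of the 5 litter terms in limma gave an unadjusted p of 0.000649 for Trpv2, 0.00146 for Trpm3 and 0.00466 for Trpc4, and above 0.05 for the 6 other genes. Thus 3 of 9 were below 0.05, where 11.3% of all genes were. No gene of the table passed after adjustment (0% of 17279), the adjusted p being 0.161 for Trpv2, 0.173 for Trpm3 and 0.226 for Trpc4. With the variance moderated by signal and robustly, 168 genes passed, among them Trpv2 (adjusted p = 0.0295) and Trpm3 (0.0303). Without litter 5 the unadjusted p of the F test was 0.195, 0.360 and 0.121 for Trpv2, Trpm3 and Trpc4. Litter 5 was singled out after its low values had been seen, so nothing is read from this rise. Of the marker sums, that of astrocytes and radial glia was also lowest in litter 5, at 24730 and 23109 against 24734 to 28408 in the other brains, with 6 of 7 genes above the intron control limit, Gfap not among them. The sum for choroid plexus, an epithelium rich in Trpm3, was 14201 and 13357 in litter 5, inside the range of 12706 to 14792 of the other brains, with 3 of 8 genes above the limit, Folr1, Kl, Clic6, Aqp1 and Prlr not among them. The part of cell makeup in the litter 5 values was not tested.

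**Figure D4:**
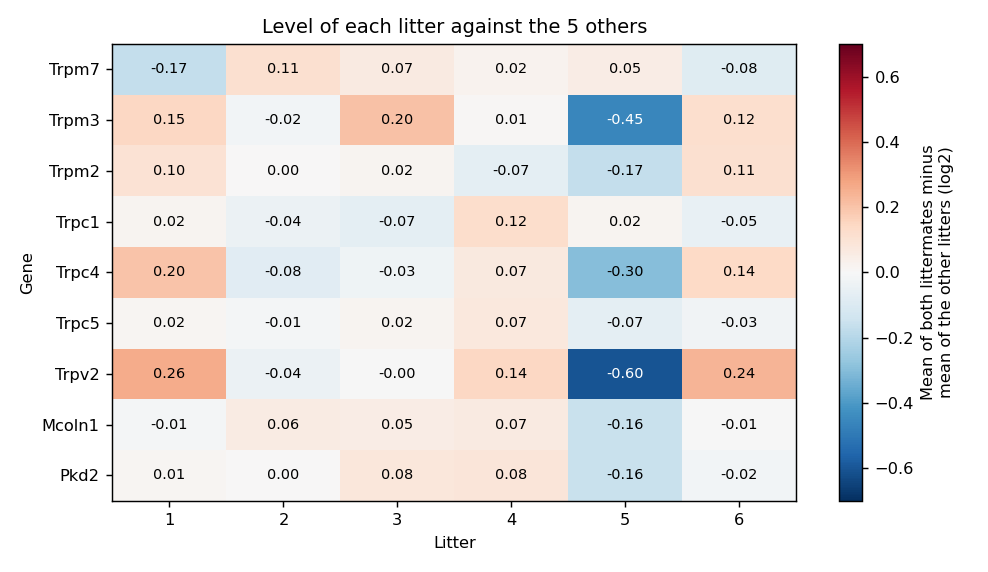
Mean gene value of both littermates minus the mean of the other 5 litters (log2), for the 9 genes in rows and the 6 litters in columns; blue is lower and red is higher, and each cell carries its value. The strongest blue lies in litter 5 for Trpv2 (-0.60), Trpm3 (-0.45) and Trpc4 (-0.30), while Trpm7 is near 0 there.

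The other 18 TRP genes analysed were mostly dim, 1 of 18 having a mean signal above the intron control limit against 7 of the 9. None of the 18 passed after adjustment in limma, and 9 were lower and 9 higher, with a median difference of -0.002, beside 69.8% lower over all genes. With centred arrays 3 of 18 were lower, beside 38.4%, and after renewed quantile normalization 4, beside 48.2%. At an unadjusted p below 0.05 there was 1, lower in KIS-ko, where 4.34% of all genes were. This was Trpc7, a diacylglycerol-gated subunit of the TRPC branch. Its gene value was 8.29, 8.57 and 8.79 in wildtype and 8.26, 8.39 and 8.70 in KIS-ko brains, and the genotypes overlapped. It differed by -0.16 ± 0.18 (SD, n = 6 litters) and by -0.10 with centred arrays, lower in 5 of 6 litters and in all 14 probesets, with an adjusted p of 0.685, and 1 of 14 probesets exceeded the intron control limit. The 17 others were Trpa1, Trpc2, Trpc6, Trpm1, Trpm4, Trpm5, Trpm6, Trpm8, Trpv1, Trpv3, Trpv4, Trpv5, Trpv6, Mcoln2, Mcoln3, Pkd2l1 and Pkd2l2, with differences from -0.09 for Trpc2 to 0.08 for Trpv5. All 74 Trpc2 probesets kept match more than 1 place in the genome, so that value cannot be given to Trpc2 alone. Trpm6, the nearest relative of Trpm7 and likewise a channel joined to an alpha-kinase, differed by 0.01 ± 0.08 and had 1 of 38 probesets above the limit. Mcoln2 and Mcoln3, the relatives of Mcoln1, had no probeset above it and differed by 0.05 ± 0.17 and -0.02 ± 0.14.

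**Figure D5:**
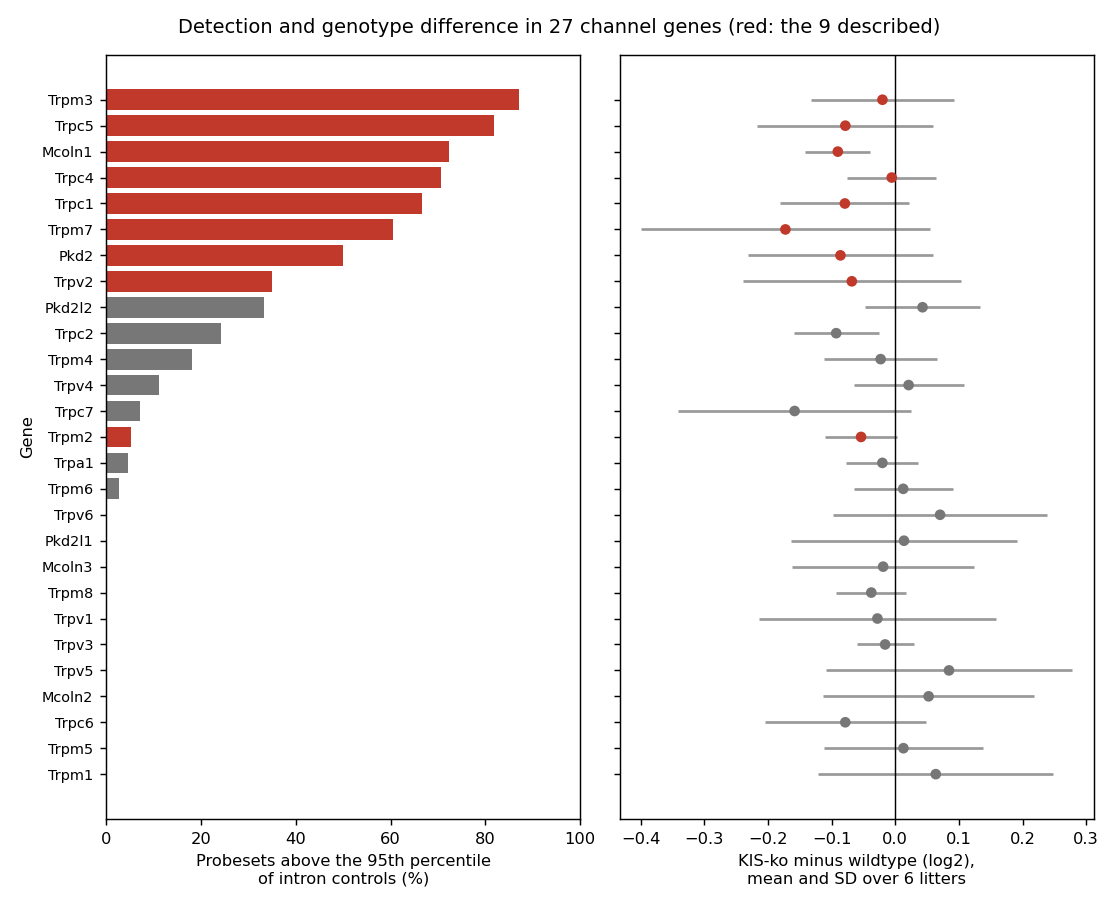
At the left, the percentage of the kept probesets of each of 27 channel genes whose mean signal exceeds the 95th percentile of the intron controls; at the right, the mean KIS-ko minus wildtype difference (log2) with its SD over 6 litters; the 9 genes described are red, the 18 others grey. Of the red genes 8 lie at 35% or more and Trpm2 at 5.26%, and the mean differences run from -0.17 for Trpm7 to 0.08 for Trpv5.

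Genes that work beside these channels were counted by list. Of 14 magnesium transporters and their relatives (Slc41, Cnnm and Nipa families, Mrs2, Magt1 and others), 13 were lower and 1 higher, with a median of -0.08. All 9 lysosomal partners of Mcoln1, such as Tpcn1, Lamp1 and Tfeb, were lower, with a median of -0.06, and 13 of 16 partners in TRPC signalling, such as Stim1, Itpr1 and Homer1, were lower, with a median of -0.04. Polycystin partners of Pkd2 were lower in 3 of 5, with a median of -0.05. The 3 other alpha-kinase genes quantified had a median of -0.03 with 2 lower, the higher one being Trpm6, already described above. In limma none of these genes passed after adjustment and none had an unadjusted p below 0.05. The medians stand beside -0.04 for all genes, with 69.8% lower.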

How the data were processed

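The authors hybridised total RNA from 12 brains to Affymetrix mouse Exon 1.0 ST arrays and deposited 1 table of PLIER signal intensity per probeset, on a linear scale, made in Affymetrix Expression Console after quantile normalization at the exon level. Its columns of the 12 brains were matched to samples by title. No depth applies to arrays, and the number of arrays limits the precision. From 221417 main probesets with a symbol, 205469 were kept whose relative standard deviation was at most 0.4 in both genotypes, the filter of the study. The gene value was the mean of log2(intensity + 16). Genotype was tested with limma 3.58.1 (R 4.3.3) and a litter block, with p adjusted by Benjamini-Hochberg across 17279 genes. Litter was tested by the F test of its 5 terms. The script was checked on simulated data. Pairs come from the litter label, and correlations of littermates' deviations from the genotype means were 0.27, -0.06, 0.14, -0.11, 0.47 and -0.11 in litters 1 to 6.

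The genes named with values are the 9 channel genes, 18 other TRP genes, Uhmk1, genes of the pathway lists with an unadjusted p below 0.05 (none), and the 5 genes most like Trpm7, while other list and marker genes are named only as examples of their list or for their detection. An item of the list of TRP genes is not reported here. Genes, lists and markers were chosen with earlier results of these data known. Promoters were searched in Python 3.11.15. The 17 alternatives were other pseudocounts, filters, scalings and summaries, variance moderation, no block, and leaving out each litter.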

Additional observations from a re-analysis of the deposited data

Results flagged for a closer look

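Of 33 groups of 6 values (the wildtype values, the KIS-ko values and the differences of the 9 channel genes, Trpc7 and Uhmk1), 2 had a sample standing apart by Dixon's criterion, 6.06%, where chance gives about 1 in 20. The Trpm7 difference of litter 4, 0.27 on the log2 scale, stood apart from the 5 other litters, the nearest of which was -0.18. Since Trpm7 was singled out on these differences, the chance rate does not apply to it and its gap is a description. The gene value of Trpm3 in the wildtype brain of litter 5 was 10.11, and the nearest wildtype brain was at 10.49.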

How the results depend on the processing

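Trpm7 kept a negative difference under all 17 alternatives, from -0.12 with centred arrays to -0.26 without litter 4, and its fold change ran from 0.855 without litter 4 to 0.953 with centred arrays. No alternative brought any of the 8 other genes past the adjusted genotype threshold, the lowest adjusted p being 0.229, without litter 4. In that setting 3913 genes had an unadjusted p below 0.05, against 1065 with all litters. Reversed signs were those of Trpm3 (0.037 centred, 0.016 quantile-normalized again, 0.037 with the median over probesets), Trpc4 (0.050, 0.039 and 0.018 in the same settings) and Trpm2 (0.071 on bright probesets). Leaving out 1 litter gave -0.051 to 0.012 for Trpm3 and -0.024 to 0.019 for Trpc4, both positive only without litter 6. Of the 18 other TRP genes, 3 were lower after centring and 4 after quantile normalization, against 9.

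Genes passing for genotype numbered 1, but 2 with a pseudocount of 64, without the filter on relative standard deviation, and with trend and robust moderation, and 5 with that filter at 0.2 or with bright probesets only. Leaving out a litter gave 1 to 2. Genes passing for litter rose from 0 to 29 (pseudocount 64), 281 (bright probesets) and 168 (trend and robust). On bright probesets Trpm3 and Trpv2 passed that test (adjusted p = 0.0444 and 0.0325 in limma). Probesets passing for genotype numbered 10, and 23 (pseudocount 64), 16 (centred) and 91 (trend and robust). Without the replicate block of littermates 26 probesets and 1 gene passed, and no call of the 8 genes changed. The cause of these shifts was not tested.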
